A study of Mus musculus with 12 samples.

Results

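Ccna1, which encodes cyclin A1, and Rad51b, which encodes a protein of homologous recombination, were followed across RNA sequencing libraries of mouse aorta. They were 2 of the 3532 gene symbols used and were found by symbol in every library. The pair was proposed because both stood lower in the libraries from mice on a high-fat diet than in those on a normal diet, so their values against the normal-diet group are given as a description, with no test. The study deposited 12 samples in 4 groups of 3. WT is genotype WT on normal-diet feeding. HFD and HAPN both carry genotype WT and high-fat feeding in the labels, and HSAPN carries APPL1 knockdown and high-fat feeding. The high-fat diet supplied 60% of its energy as fat and was given for 12 weeks, per the labels' protocols. The labels do not say what HAPN and HSAPN stand for, what sets HAPN apart from HFD, how and in which cells APPL1 was lowered, or the age and strain of the mice. They also do not say that replicates came from separate animals, so p-values below reflect the spread among libraries alone, which may be technical. The values of HFD replicates 1 and 2 were identical for every gene and were counted as 1 library, which left 3 WT, 2 HFD, 3 HAPN and 3 HSAPN libraries, 11 in all.

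Cyclins are the regulatory partners of cyclin-dependent kinases and drive the steps of the cell cycle. Cyclin A2 is the A-type cyclin of dividing somatic cells, while cyclin A1 is best known from the male germ line, where it is needed for meiosis. Homologous recombination repairs broken DNA by copying from an intact, matching strand. The Rad51b protein belongs to a complex with Xrcc2 and related proteins that helps this repair, and is needed for normal development of the mouse embryo. The aorta wall consists mainly of smooth muscle, endothelium and fibroblasts, most of which are not dividing in the adult.

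Ccna1 (ENSMUSG00000027793.6) lies on the minus strand of chromosome 3, from 55045469 to 55055501 in GRCm38. The GENCODE M21 annotation gives it 6 transcripts, all 6 coding, and 1835 exonic bases. An antisense gene, 4931419H13Rik, overlaps 185 of those bases. Libraries were directional, but no source used here gives the strand setting of the counting, so reads of the 2 genes in that stretch cannot be told apart. Rad51b (ENSMUSG00000059060.15) lies on the plus strand of chromosome 12, from 79297282 to 79814690, has 4 transcripts, 3 of them coding, and holds 3757 exonic bases within a span of 517409. No other gene overlaps its exons.

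The stretches just before the RefSeq start of each gene are shown because both genes stood lower in the same libraries, and a reader may want to set the 2 promoters side by side. They are from RefSeq (GRCm38.p6) and read 5′ to 3′ on the gene's own strand. Capitals mark the CCAAT box, a promoter element bound by the factor NF-Y, which both carry on the reverse strand as ATTGG. The Ccna1 stretch is chr3:55055056-55055251 on the minus strand, 196 bases, and ends next to the RefSeq start at 55055055. Some GENCODE transcripts of Ccna1 begin farther out, up to 55055501, so the stretch lies inside the gene span given above, between the first exons of those transcripts and the RefSeq start. The Rad51b stretch is chr12:79297032-79297281 on the plus strand, 250 bases, next to the start at 79297282.
Ccna1: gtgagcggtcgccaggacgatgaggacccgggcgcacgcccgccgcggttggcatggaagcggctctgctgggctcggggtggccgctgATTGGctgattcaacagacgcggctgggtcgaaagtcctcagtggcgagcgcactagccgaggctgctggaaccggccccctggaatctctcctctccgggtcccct
Rad51b: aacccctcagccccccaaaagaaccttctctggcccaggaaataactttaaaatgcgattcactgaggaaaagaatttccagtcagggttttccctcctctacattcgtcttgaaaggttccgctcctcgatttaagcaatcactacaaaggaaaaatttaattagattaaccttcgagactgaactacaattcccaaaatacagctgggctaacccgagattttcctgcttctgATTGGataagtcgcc

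The 2 stretches differed in base composition. Ccna1 had 68.9% G and C and 20 CpG sites, and Rad51b had 42.8% and 7. Their CCAAT boxes sat at different distances, with ATTGG beginning 107 bases before the RefSeq start of Ccna1 and 15 bases before that of Rad51b. Such a box, read on either strand, is common: 29.0% of 32851 promoter stretches of 196 bases and 33.8% of those of 250 bases held one. Searched on both strands, neither stretch held CACGTG (an E box), TTTGAA (the core of the cell cycle homology region), TTTCGCGC, TTTGGCGC or TTTCCCGC (E2F sites), GGGCGG (an Sp1 site) or TTATGTAA. Only CCAAT was found, so no 2 matches overlapped. The longest run the 2 shared on the gene's strand was GCTGGGCT, 8 bases, which 1.46% of the 250-base stretches also held on that strand.

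The deposited values are in FPKM, fragments scaled by transcript length and by the mapped reads of the library, so levels of the 2 genes can be compared per length. Whole numbers of reads could be recovered from them, at 15690000 to 17880000 reads per library, and both genes gave a whole number in every library. The files hold 12.0 to 17.6% of those reads, so they cover only a part of the transcriptome, chosen by a rule that no source used here states. The tissue label was checked against marker genes. Smooth muscle markers were present (12 of 15 listed), summing to 1031 to 4061 FPKM in WT and 366 to 1242 FPKM in the high-fat libraries. None of the 12 endothelial, 9 B cell or 20 ciliated airway markers was among the genes used, so those cells could not be checked. Genes of airway secretory cells, which an aorta should lack, were present in every library (2 of 11 markers), at 268 to 11674 FPKM in WT and 7.07 to 6777 FPKM in the high-fat libraries. Fewer cells of a type and less RNA per cell cannot be told apart in such bulk samples.

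Ccna1 stood at about 2 FPKM in each WT library and well under 1 FPKM in each high-fat library. Its WT values were 2.09, 1.92 and 2.24 FPKM in replicates 1 to 3, from 67, 63 and 70 reads. In HFD it was at 0.171 FPKM in the library deposited as replicates 1 and 2, from 5 reads, and at 0.557 FPKM in replicate 3, from 17 reads. These few reads leave wide counting intervals: the exact 95% Poisson interval of 5 reads is 1.62 to 11.7 reads, and that of 67 reads is 51.9 to 85.1 reads. Such intervals cover counting error only. In HAPN Ccna1 was at 0.672, 0.306 and 0.278 FPKM in replicates 1 to 3, from 20, 10 and 8 reads. In HSAPN it was at 0.463, 0.280 and 0.427 FPKM, from 15, 9 and 13 reads. The highest of the 8 high-fat values, HAPN replicate 1, was thus below the lowest WT value, and the 3 high-fat groups overlapped one another.

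**Figure D1:**
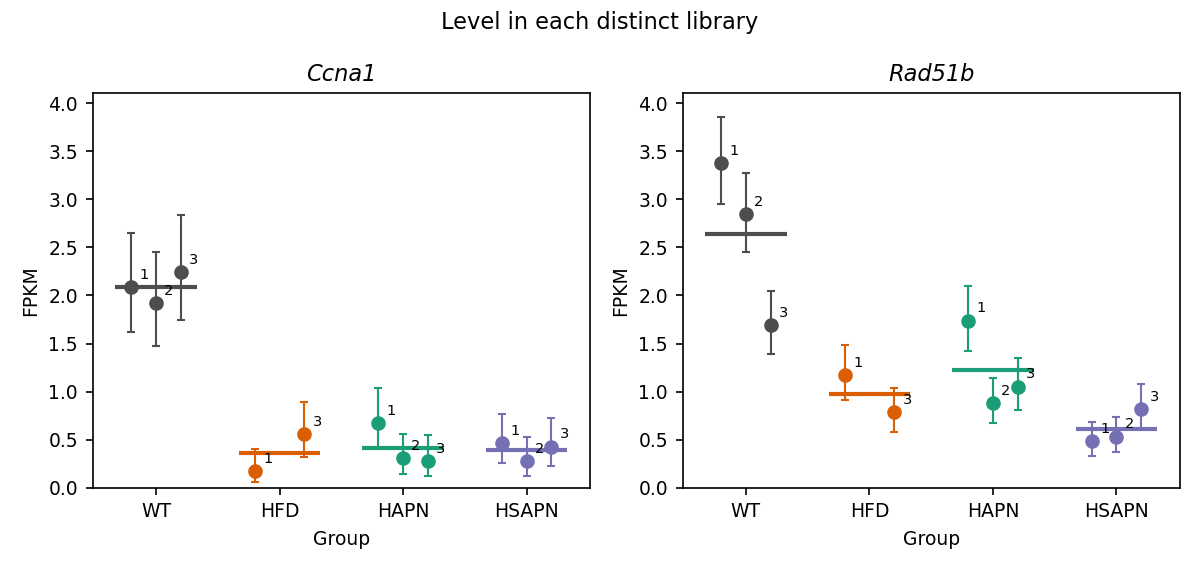
Ccna1 (left) and Rad51b (right) in each distinct library, in FPKM on a linear axis; points are libraries with their replicate number, vertical bars the exact 95% Poisson counting interval of the recovered reads and horizontal lines the group means. Ccna1 lies at 1.92 to 2.24 FPKM in WT and at 0.171 to 0.672 FPKM in the high-fat libraries, while Rad51b in WT replicate 3 (1.69 FPKM) is level with HAPN replicate 1 (1.74 FPKM).

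As group means, Ccna1 was at 2.08 ± 0.162 FPKM in WT (SD, n = 3), 0.364 ± 0.273 FPKM in HFD (SD, n = 2), 0.419 ± 0.220 FPKM in HAPN (SD, n = 3) and 0.390 ± 0.0971 FPKM in HSAPN (SD, n = 3). Means in WT were 5.72-fold those in HFD, 4.98-fold those in HAPN and 5.35-fold those in HSAPN. Over all 8 high-fat libraries the mean was 0.394 ± 0.166 FPKM (SD, n = 8), 5.29-fold below WT, and without WT replicate 3 that ratio was 5.08. The spread among the WT libraries (0.162 FPKM) was smaller than read counting alone would give (0.255 FPKM), and among the high-fat libraries it was somewhat larger (0.166 against 0.113 FPKM). WT came first in the order of levels, and HAPN, HSAPN and HFD followed with means that lay within one another's spread. In WT libraries Ccna1 was above 66.4 to 72.6% of the genes in the files, and in high-fat libraries above 21.5 to 55.0%.

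On the scale used for the fit, log2(FPKM + 1), Ccna1 differed from WT by -1.19 (SE 0.194) in HFD, -1.13 (SE 0.173) in HAPN and -1.15 (SE 0.173) in HSAPN. This scale understates changes of genes at low FPKM. In limma-voom on the recovered reads, which works with log2 reads relative to library size, the same differences were -2.66, -2.38 and -2.40. These comparisons all use the same WT libraries. Every Ccna1 value in a high-fat group was below all WT values, which was also so for 7.17% of the 1659 tested genes in HFD, 20.4% in HAPN, 19.0% in HSAPN and 2.29% over all 8 high-fat libraries. Of those genes, 1 (0.0603%) passed the threshold of a Benjamini-Hochberg adjusted p of 0.05 in limma for high-fat against WT, and it was Ccna1 itself; since Ccna1 was chosen on this difference, nothing is read from that call. Without WT replicate 3 the count was 240, and Ccna1 was not among the tested genes, since only 2 libraries then reached 1 FPKM.

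Rad51b was lower in the high-fat libraries too, by less and with more spread. Its WT values were 3.38, 2.84 and 1.69 FPKM in replicates 1 to 3, from 222, 191 and 108 reads. In HFD it was at 1.17 FPKM in the library deposited as replicates 1 and 2, from 70 reads, and at 0.784 FPKM in replicate 3, from 49 reads. In HAPN it was at 1.74, 0.881 and 1.05 FPKM, from 106, 59 and 62 reads. In HSAPN it was at 0.482, 0.531 and 0.818 FPKM, from 32, 35 and 51 reads. WT replicate 3 lay apart from the other WT libraries, just below HAPN replicate 1, so WT and HAPN overlapped. The other 7 high-fat libraries were below all WT libraries.

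Group means of Rad51b were 2.64 ± 0.861 FPKM in WT (SD, n = 3), 0.978 ± 0.274 FPKM in HFD (SD, n = 2), 1.22 ± 0.454 FPKM in HAPN (SD, n = 3) and 0.610 ± 0.181 FPKM in HSAPN (SD, n = 3). WT means were 2.70-fold those in HFD, 2.15-fold those in HAPN and 4.32-fold those in HSAPN. Over the 8 high-fat libraries the mean was 0.932 ± 0.401 FPKM (SD, n = 8), 2.83-fold below WT, and without WT replicate 3 that ratio was 3.34. Here the spread was several times what counting alone would give, 0.861 against 0.20 FPKM in WT and 0.401 against 0.123 FPKM in the high-fat libraries. The order was WT, HAPN, HFD, HSAPN. HAPN and HFD overlapped, HFD and HSAPN overlapped, and every HSAPN value was below every HAPN value.

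The log2(FPKM + 1) differences of Rad51b from WT were -0.86 (SE 0.257) in HFD, -0.70 (SE 0.230) in HAPN and -1.15 (SE 0.230) in HSAPN, against -1.40, -1.11 and -2.09 in limma-voom on recovered reads. For high-fat against WT the values were -0.90 (SE 0.192) for Rad51b and -1.16 (SE 0.145) for Ccna1, where the median of the 1659 tested genes was -0.06. Ccna1 stood at percentile 2.5 and Rad51b at percentile 5.3 of those differences, counted from the lowest.

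Differences among the 3 high-fat groups were not what the genes were chosen on, and were tested with limma. Ccna1 reached 1 FPKM in the WT libraries alone, where it was high, and so met the filter of the test only through them. Its error in the fit was pooled with WT, whose spread was below that of read counting alone (0.162 against 0.255 FPKM). Ccna1 differed between no pair of high-fat groups beyond its error, from which nothing is concluded. HAPN minus HFD was 0.06 (95% interval -0.38 to 0.50, adjusted p = 0.870), HSAPN minus HAPN was -0.02 (-0.41 to 0.37, adjusted p = 0.999) and HSAPN minus HFD was 0.04 (-0.40 to 0.47, adjusted p = 0.955), all log2(FPKM + 1) with limma and Benjamini-Hochberg adjustment. The intervals leave room for a difference of about 0.5 either way, and on the scale of recovered reads they are wider, at -1.19 to 1.15 for HSAPN minus HAPN in limma-voom. A p above the threshold does not show that the groups were alike.

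For Rad51b the APPL1 knockdown group had the lowest mean. The HAPN mean was 2.01-fold the HSAPN mean, and all 3 HSAPN libraries were below all 3 HAPN libraries, an order without overlap that 7.53% of tested genes also showed. The log2(FPKM + 1) difference was -0.45 (SE 0.230, 95% interval -0.97 to 0.06), with a limma p of 0.0791 and a Benjamini-Hochberg adjusted p of 0.746. In limma-voom on recovered reads it was -0.97, with a limma-voom p of 0.0482 and a Benjamini-Hochberg adjusted p of 0.701. Neither passed after adjustment over all tested genes, and without HAPN replicate 1 the log2(FPKM + 1) difference was -0.29. Rad51b in HSAPN minus HFD was -0.30 (-0.87 to 0.28, limma adjusted p = 0.886), but -0.15 without HFD replicate 1, -0.44 without HFD replicate 3 and -0.69 in limma-voom, and in HAPN minus HFD 0.16 (-0.42 to 0.73, limma adjusted p = 0.767). HAPN minus HFD and HSAPN minus HFD share the 2 HFD libraries.

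Few genes passed the limma threshold in these comparisons. Of 1659 tested, 3 (0.181%) did in HAPN minus HFD, 2 (0.121%) in HSAPN minus HAPN and 0 (0.0%) in HSAPN minus HFD, where 67 had an unadjusted p under 0.05 in limma and limma-voom called 0. The difference of the median gene was -0.24 in HAPN minus HFD and -0.18 in HSAPN minus HFD, and -0.04 and -0.02 after median-ratio scaling, so the small positive differences of Ccna1 and the values of Rad51b in these comparisons stand against a lower background. Relative to the median gene, Rad51b in HSAPN minus HFD (-0.30 against -0.18) lay close to it, at percentile 34.7, and in HSAPN minus HAPN at percentile 9.1.

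**Figure D2:**
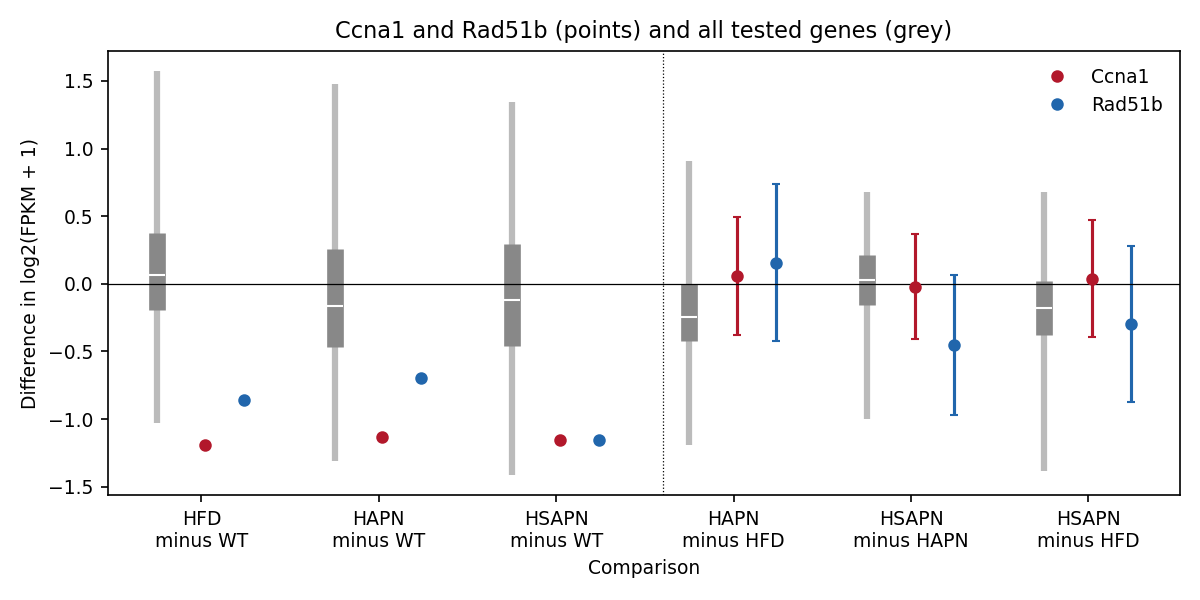
Differences in log2(FPKM + 1) of Ccna1 and Rad51b (points) in each comparison, with the 95% interval of the fit for comparisons among high-fat groups only, since the genes were chosen on their differences from WT. Grey bars show the 1659 tested genes (thin bar the central 95%, thick bar the quartiles, white tick the median); both genes lie low in the comparisons with WT (-1.19 to -0.70), and Rad51b is lower in HSAPN than in HAPN by a difference (-0.45) whose interval reaches 0.06.

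The 2 genes did not keep a fixed ratio. Rad51b per Ccna1, in FPKM, was 1.62, 1.48 and 0.754 in the WT libraries, 6.84 and 1.41 in HFD, 2.59, 2.88 and 3.79 in HAPN, and 1.04, 1.90 and 1.92 in HSAPN. WT replicate 3 was the only library in which Ccna1 was above Rad51b. The log2 ratio was 1.61 ± 0.28 in HAPN (SD, n = 3) and 0.64 ± 0.50 in HSAPN (SD, n = 3), and all HAPN ratios were above all HSAPN ratios, a difference that was not tested. Across the 11 libraries the log2(FPKM + 1) values of the 2 genes had a Pearson r of 0.811, across the 8 high-fat libraries 0.220, and for deviations from the group means over all 11 libraries 0.0832. The values of 1 library share its depth, and the first r holds the step between WT and the rest on which the genes were chosen.

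Of 13 marker lists with genes present, red blood cell genes had the r farthest from 0 with Rad51b, and they also ran against Ccna1. The summed level of the 10 of 12 listed markers present was 425, 429 and 3238 FPKM in WT, 3885 and 2219 FPKM in HFD, 1328, 3938 and 3019 FPKM in HAPN, and 4918, 3201 and 4243 FPKM in HSAPN. The 3 libraries with the lowest red cell sum, WT replicates 1 and 2 and HAPN replicate 1, were the 3 with the highest Rad51b. Over 11 libraries r between the log2 sum and Rad51b was -0.886, and over the 8 high-fat libraries -0.684. For Ccna1 the values were -0.706 and -0.620. Each r over 11 libraries holds the step between WT and the rest on which the genes were chosen. Other lists came near or past these: for Ccna1, platelet markers over 11 libraries (-0.745) and macrophage markers over the 8 high-fat libraries (-0.856), and for Rad51b, smooth muscle (0.735) and T and NK cell markers (-0.691) over 11 libraries. In WT replicate 3, whose red cell sum of 3238 FPKM lay inside the high-fat range of 1328 to 4918 FPKM, Ccna1 was at 2.24 FPKM, the highest of all libraries. Rad51b was at 1.69 FPKM there, its lowest WT value. The part of the red cell genes in the differences of Ccna1 and of Rad51b, also those of Rad51b between HAPN and HSAPN, was not tested.

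**Figure D3:**
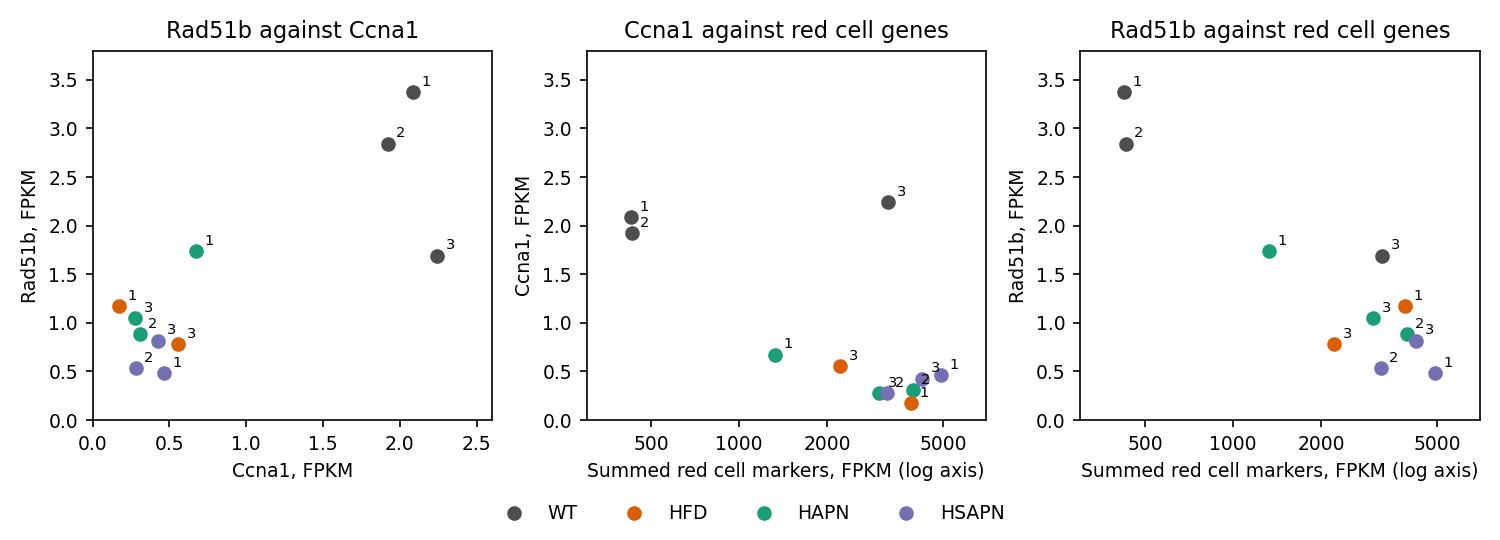
Left, Rad51b against Ccna1 in each library, both in FPKM; middle and right, Ccna1 and Rad51b in FPKM against the summed FPKM of red cell markers on a log axis. Points are single libraries coloured by group and numbered by replicate; WT replicate 3 joins a red cell sum of 3238 FPKM with Ccna1 at 2.24 FPKM and Rad51b at 1.69 FPKM.

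Summed levels of other cell type lists were not tested between the diet groups. Platelet markers (14 of 14 present) summed to 115 to 183 FPKM in WT and 198 to 708 FPKM in the high-fat libraries, with no overlap, while the sums of the lists that follow overlapped between WT and high-fat libraries. All 10 tested smooth muscle markers and 8 of 11 tested adipocyte markers had a lower log2(FPKM + 1) mean in high-fat than in WT libraries. Of all 1659 tested genes, 55.4% did. The adipocyte count differed by group: 7 were higher and 4 lower in HFD than in WT, against 2 higher and 9 lower in HAPN and likewise in HSAPN. Adipocyte markers (12 of 13 present) summed to 135 to 1004 FPKM in WT and 53.9 to 1539 FPKM in high-fat libraries, fibroblast markers (6 of 12) to 283 to 311 FPKM and 178 to 337 FPKM, and cardiac muscle markers (2 of 13) to 43.3 to 215 FPKM and 7.02 to 243 FPKM. T and NK cell markers (4 of 12) summed to 3.05 to 30.0 FPKM in WT and 6.43 to 86.1 FPKM in high-fat libraries. HFD replicate 1, the library with the fewest Ccna1 reads, had the highest adipocyte, platelet and cardiac sums of all libraries. The part of these cell types in the levels of Ccna1 and Rad51b was not tested.

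The other cyclins present did not have lower means in the high-fat libraries. Of 47 listed cyclins and cyclin-dependent kinases, 3 were present: Ccna1, Ccna2 and Ccnb2. Ccna2, the A-type cyclin of somatic cells, was at 0.826, 1.26 and 1.12 FPKM in WT, 1.36 and 0.913 FPKM in HFD, 0.725, 1.75 and 3.42 FPKM in HAPN, and 1.53, 2.85 and 1.39 FPKM in HSAPN. Its mean over the high-fat libraries, 1.74 ± 0.932 FPKM (SD, n = 8), was above the 1.07 ± 0.222 FPKM of WT (SD, n = 3) by a log2(FPKM + 1) difference of 0.31, with a limma adjusted p of 0.475. In WT, Ccna1 was the higher of the 2 A-type cyclins in every library, and in every high-fat library it was the lower. Ccnb2, a mitotic B-type cyclin, was at 2.57 ± 1.47 FPKM in WT (SD, n = 3) and 3.61 ± 1.76 FPKM in high-fat libraries (SD, n = 8), a difference of 0.34 with a limma adjusted p of 0.551.

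Genes of S phase and mitosis varied among libraries with no relation to the diet groups that passed a test. All 7 present of 40 listed were tested (Mki67, Top2a, Rrm2, Aurkb, Nusap1, Birc5 and Melk), and 6 were higher and 1 (Melk) lower in high-fat than in WT, with a median difference of 0.29 against -0.06 over all tested genes. Mki67, the proliferation antigen, was at 1.79 ± 0.534 FPKM in WT (SD, n = 3) and 3.61 ± 2.05 FPKM in high-fat libraries (SD, n = 8), a difference of 0.59 with a limma adjusted p of 0.331. The library with the highest Ccna2, Ccnb2, Mki67 and Top2a was HAPN replicate 3 (Mki67 at 7.51 FPKM), in which Ccna1 was at 0.278 FPKM. HAPN replicate 1, with the lowest Mki67 (1.16 FPKM) and Top2a (0.718 FPKM), had the highest high-fat values of both Ccna1 and Rad51b.

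**Figure D4:**
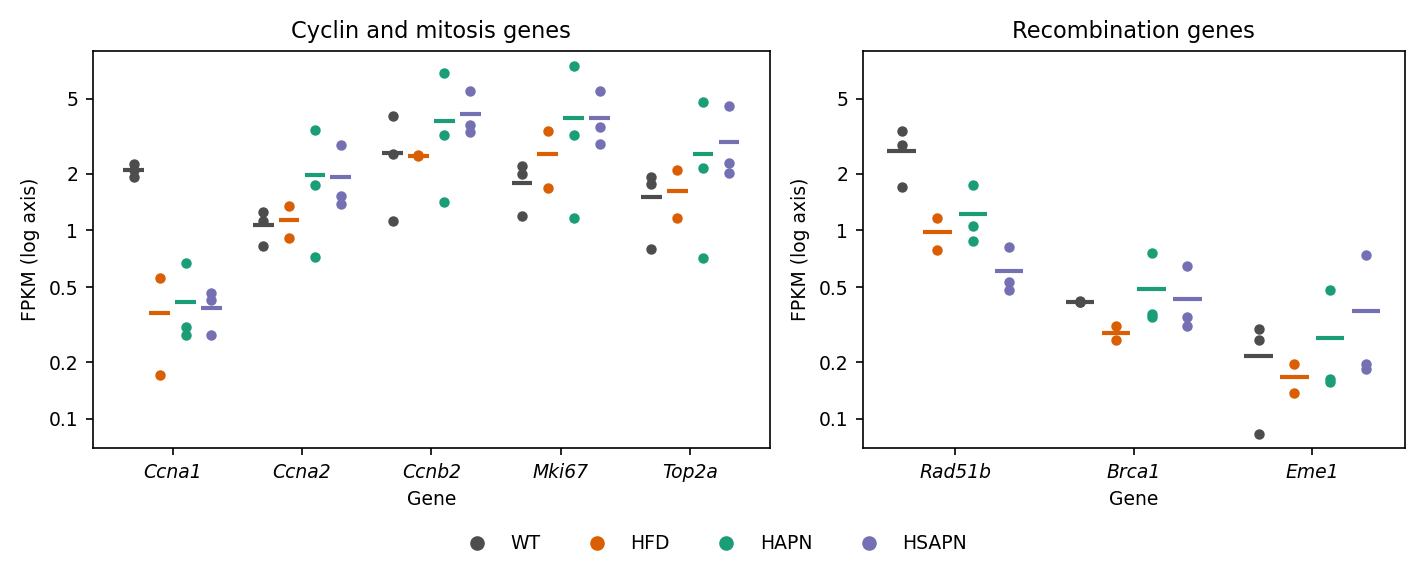
Levels in FPKM, on a log axis, of cyclin and mitosis genes (left) and recombination genes (right); points are distinct libraries coloured by group and short lines the group means. Ccna1, chosen for its lower values on the high-fat diet, has every WT library (1.92 to 2.24 FPKM) above every high-fat library, as had 2.29% of tested genes. The other cyclin and mitosis genes drawn overlap between WT and high-fat libraries. Brca1 and Eme1 lie under 1 FPKM in every library.

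Few recombination partners of Rad51b were in the part of the transcriptome that the files hold, so the level of the rest could not be read. Of 51 listed genes of homologous recombination, 4 were present, and Rad51b alone reached 1 FPKM in at least 3 libraries, as the test asked. Brca1, a tumour suppressor needed for this repair, was at 0.418 ± 0.00282 FPKM in WT (SD, n = 3) and 0.418 ± 0.182 FPKM in high-fat libraries (SD, n = 8). These equal means hide a spread. HAPN replicate 3 (0.762 FPKM) and HSAPN replicate 2 (0.648 FPKM) were above the WT range of 0.415 to 0.420 FPKM. All other high-fat libraries were below it, at 0.261 to 0.361 FPKM, and the difference was not tested. Eme1, part of a nuclease that resolves recombination structures, was at 0.215 ± 0.116 FPKM in WT and 0.282 ± 0.217 FPKM in high-fat libraries. Rad51ap2 was listed at 0 in most libraries and reached at most 0.0379 FPKM.

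Over all pathway lists, the 2 genes aside, 20 genes were tested, and limma and limma-voom each called 0 of them in high-fat against WT and in the 3 comparisons among high-fat groups. At an unadjusted limma p under 0.05, HSAPN minus HFD held 0 of them, HAPN minus HFD and HSAPN minus HAPN held 1 each (Sfn, a p53 target), and high-fat against WT held 1, Cdkn1a, the p53-induced inhibitor of cyclin-dependent kinases. Of all 1659 tested genes, 67, 143, 130 and 392 met that threshold in these 4 comparisons, in the same order. Cdkn1a was at 28.4 ± 16.9 FPKM in WT (SD, n = 3) and 50.5 ± 15.4 FPKM in high-fat libraries (SD, n = 8), a log2(FPKM + 1) difference of 0.88 with a limma adjusted p of 0.169. All 5 tested p53 target genes were higher in the high-fat libraries pooled, with a median of 0.17, as were 740 of the 1659 tested genes. By group, 4 were higher and 1 lower in HFD than in WT, and all 5 were higher in HAPN. In HSAPN 3 were higher and 2 lower, with a median of 0.06. Among 4 present of 67 listed genes of other DNA repair routes, Mgmt, which removes alkyl groups from guanine, was at 1.99 ± 0.494 FPKM and 1.39 ± 0.337 FPKM in the same 2 sets (limma adjusted p = 0.242), while Ercc1 and Xrcc6 differed by 0.12 and -0.01. Of 42 listed meiosis genes 6 were present and 1 was tested, Mnd1, a strand exchange cofactor, at 3.81 ± 0.676 FPKM and 3.11 ± 0.583 FPKM (limma adjusted p = 0.396). Near Rad51b on chromosome 12, Galnt16 was at 1.90 ± 1.43 FPKM in WT (SD, n = 3) and 0.794 ± 0.425 FPKM in high-fat libraries (SD, n = 8), a difference of -0.60 with a limma adjusted p of 0.231.

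Genes whose levels ran most like the 2 were ranked by Pearson r of log2(FPKM + 1) over the 11 libraries. The ranking was among named genes whose log2(FPKM + 1) averaged 1 or more, 1223 for Ccna1 and 1222 for Rad51b. For Ccna1 the first 6 were Echdc3 (r = 0.871), Rbp4 (0.853), which carries retinol in blood, Tcea3 (0.849), a transcription elongation factor, Aqp2 (0.829), a water channel, Egr1 (0.825), an immediate early transcription factor, and Tmem52 (0.825). Aqp2 and Egr1 ran with Ccna1 through the step between WT and the rest: r of their deviations from group means was -0.0777 and -0.178. For Echdc3, Rbp4, Tcea3 and Tmem52 that r was 0.606, 0.803, 0.658 and 0.369. For Rad51b the first 6 were Grhpr (0.946), a glyoxylate reductase, Prr36 (0.945), Mgst2 (0.928), a microsomal glutathione transferase, Pla2g16 (0.919), a phospholipase, Fbxl13 (0.919) and Spata24 (0.914). In deviations from the group means their r with Rad51b was 0.783 to 0.882. For both genes these deviations come from the same libraries as the ranking, so they are no separate support. Grhpr was at 15.7 ± 3.77 FPKM in WT (SD, n = 3) and 8.05 ± 0.793 FPKM in HSAPN (SD, n = 3), the highest and lowest of its 4 group means. By the same measure Rad51b ranked 18 for Ccna1 and Ccna1 ranked 95 for Rad51b, each among all 1658 other tested genes.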

How the data were processed

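RNA of mouse aorta was extracted with TRIzol and sequenced from directional libraries, per the labels' protocols. The submitters' processing notes list the build GRCm38, DESeq 1.8.3 and the read counter featureCounts 1.5.0-p3 without saying what each did; no source used here gives the aligner. The authors' deposited files hold 3534 rows of FPKM values. One symbol listed more than once was left out. Reads were recovered with GENCODE M21 exonic lengths: 95.7 to 97.0% of values up to 20 reads were whole within 0.1 read, though a TPM scaling would pass this too. Genes at 1 FPKM or more in at least 3 libraries (1659) were fitted with limma 3.58.1 in R 4.3.3 on log2(FPKM + 1), a pseudocount of 1, in 1 fit of 4 group means with Benjamini-Hochberg adjustment at 0.05. The fit was run on simulated data, with changes set only in genes of higher mean level than Ccna1 and Rad51b. It recovered 34.3 to 56.7% of those given a log2 difference of 1 in comparisons among high-fat groups. Genes at the level of Ccna1 and Rad51b were not covered. Since the files hold no counts, the planned test for normalized values was used. Limma-voom on recovered reads was an alternative, with other pseudocounts, filters, scaling, weights, a replicate block and libraries left out. Genes most alike were the 6 with the highest r among named genes whose log2(FPKM + 1) averaged 1 or more. The members, lists and rules were chosen with earlier results of these data known. Ccna2, Mki67 and others named from the lists were chosen after their values were seen. The results of 1 listed gene are not reported here. Tables were made with pandas 2.3.3, and figures with matplotlib 3.10.9.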

Additional observations from a re-analysis of the deposited data

How the results depend on the processing

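No Ccna1 or Rad51b test among high-fat groups passed in any run. For Ccna1, tested through high WT values or with WT in its error, nothing is concluded. Rad51b adjusted p (limma, limma-voom) was at least 0.700 in HAPN minus HFD, 0.282 in HSAPN minus HAPN and 0.453 in HSAPN minus HFD. Small Ccna1 differences changed sign: HAPN minus HFD to -0.0065 with array weights, -0.15 without HFD replicate 1 and -0.06 without HAPN replicate 1 (range leaving out 1 library, -0.15 to 0.27), HSAPN minus HAPN to 0.033 with array weights, 0.10 without HAPN replicate 1 and 0.04 without HSAPN replicate 2 (-0.091 to 0.10), and HSAPN minus HFD to -0.17 without HFD replicate 1 (-0.17 to 0.24). Rad51b in HAPN minus HFD went to -0.0024 without HAPN replicate 1 (-0.0024 to 0.30), and in HSAPN minus HAPN stayed between -0.97 and -0.29 and in HSAPN minus HFD between -0.69 and -0.15 over all alternatives. Differences from WT kept their sign, from -2.48 to -1.09 for Ccna1 and -1.53 to -0.75 for Rad51b in high-fat minus WT. Since both genes were chosen on this difference, nothing is read from the kept sign. Ccna1 gave no value without any 1 WT replicate or with a filter of 1 FPKM in 6 libraries, as fewer libraries then reached 1 FPKM than the filter asked. Counts of called genes moved more, and the cause was not tested. In HAPN minus HFD (3) they were 5 without a filter, 0 with the filter in 6 libraries, 5 with median-ratio scaling, 0 with limma-voom, 0 with array weights, 10 with the identical files as 2 libraries, 0 with a fit of the 2 groups alone and 0 to 6 leaving out 1 library (0 without HAPN replicate 2, 6 without WT replicate 3, 5 without HFD replicate 3, and 1 without WT replicate 2, HFD replicate 1, HAPN replicate 1 or any HSAPN replicate). In HSAPN minus HAPN (2) they were 1 without a filter, 1 with limma-voom, 79 with array weights, 0 with the 2 groups alone and 0 to 3 leaving out 1 library (0 without HAPN replicate 2 or any HSAPN replicate, 1 without WT replicate 1 or 2, either HFD library or HAPN replicate 1). In HSAPN minus HFD (0) they were 2 without a filter, 2 with the identical files as 2 libraries, 1 with the 2 groups alone and 0 to 3 leaving out 1 library (3 without HFD replicate 3, 1 without HFD replicate 1 or WT replicate 1). In high-fat minus WT (1) they were 0 with a pseudocount of 0.1 or 0.5, 3 without a filter, 0 with the filter in 6 libraries, 0 with median-ratio scaling, 263 with array weights, 8 with the identical files as 2 libraries, 5 with a single high-fat group, and 0 to 240 leaving out 1 library, 240 without WT replicate 3, 1 without HFD replicate 3 or HAPN replicate 1 and 0 without any other. Whether replicate numbers pair the libraries was not settled, since 1 HFD library was deposited as both replicates 1 and 2. With it as number 1, 4 of 15 same-number pairs correlated above 0.1 (range -0.59 to 0.50). In that reading 2 of 11 libraries correlated best with their own number. That HFD library correlated at -0.59, 0.08 and -0.34 with replicate 1 of WT, HAPN and HSAPN. With replicate 2 of these groups r was 0.37, 0.58 and -0.17. The replicate block took that library as number 1. With this block, 0 genes were called in HAPN minus HFD, 3 in HSAPN minus HAPN, 0 in HSAPN minus HFD and 1 in high-fat minus WT. Rad51b in HSAPN minus HAPN was then -0.45 (limma adjusted p = 0.934). With 5 to 20 reads of Ccna1 in a high-fat library, depth limits what differences among those groups could be seen.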
